A study of Homo sapiens with 44 samples.

Results

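The superoxide dismutases SOD1, SOD2 and SOD3 and 7 further antioxidant enzymes (CAT, GPX3, HMOX1, NQO1, GCLM, TXNRD1 and GCH1) were followed in Ccd-18Co, a fibroblast line from human colon. The 10 enzymes were chosen by name and looked up among the 40663 gene symbols of the count table, where all 10 were listed, and 9 of them passed the filter on low counts together with 9513 genes in all. SOD3 did not pass. The study asked how stromal cells respond to cytokines linked to Crohn's disease. It comprised 44 bulk RNA-seq libraries in 11 groups of 4 replicates, namely unstimulated cells and cells given TNF, IL-1β, IL-17A, OSM (oncostatin M), IL-6, IFNα, IFNγ, TGF-β1, IL-13 or IL-22. By the study's methods cells spent 72 h without serum before a stimulation of 24 h. By the labels the dose was 0.1 ng/ml for IL-1β and 10 ng/ml for the other cytokines, while another place in the study's text gives a different IL-1β dose. All libraries came from this single line, and nothing states that replicates were separate cultures, so that p-values measure only the spread between these samples, which may be technical.

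Superoxide dismutases turn superoxide into hydrogen peroxide. SOD1 is the copper and zinc enzyme of the cytosol, SOD2 the manganese enzyme of the mitochondrial matrix and SOD3 the secreted form. Catalase (CAT) and glutathione peroxidases such as the secreted GPX3 remove the peroxide. HMOX1 breaks down heme, NQO1 reduces quinones, GCLM is the regulatory subunit of the enzyme that starts glutathione synthesis, and TXNRD1 recycles thioredoxin. These last 4 are textbook targets of NRF2 (gene NFE2L2), a transcription factor that KEAP1 holds in check and that binds the antioxidant response element. SOD2 is instead best known as a target of NF-κB, which TNF and IL-1β activate. GCH1 catalyzes the rate-limiting step in the synthesis of tetrahydrobiopterin, the cofactor of nitric oxide synthases.

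On GRCh38 (GENCODE release 44), SOD2 lies on the minus strand of chromosome 6 from 159669069 to 159762529, GCLM on the minus strand of chromosome 1 from 93885199 to 93909456 and TXNRD1 on the plus strand of chromosome 12 from 104215779 to 104350307. NQO1 lies on the minus strand of chromosome 16 from 69706996 to 69726668 and GCH1 on the minus strand of chromosome 14 from 54842008 to 54902826. RefSeq promoter windows (build GRCh38.p14, 250 bases before to 50 after a start site) were found for 7 of the 10 enzymes, 11 windows in all. The windows were searched on both strands for the core of the antioxidant response element (TGACNNNGC), the palindrome that STAT factors bind (TTCNNNGAA) and the consensus of NF-κB. Of 35116 such windows in RefSeq, 13.3% held the first, 7.66% the second and 11.3% the third. Shown here are the 250 bases before a start site of SOD2, the enzyme that changed after the most cytokines, and of GCLM and TXNRD1, the enzymes whose windows held a match, each 5′ to 3′ on its gene's strand with matches in capitals:
SOD2, chr6:159693242-159693491, minus strand: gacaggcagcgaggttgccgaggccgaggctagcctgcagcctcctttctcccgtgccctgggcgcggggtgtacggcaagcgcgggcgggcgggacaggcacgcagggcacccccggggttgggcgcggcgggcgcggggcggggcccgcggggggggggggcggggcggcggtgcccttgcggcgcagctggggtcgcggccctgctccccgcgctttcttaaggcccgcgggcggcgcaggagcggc
GCLM, chr1:93909431-93909680, minus strand: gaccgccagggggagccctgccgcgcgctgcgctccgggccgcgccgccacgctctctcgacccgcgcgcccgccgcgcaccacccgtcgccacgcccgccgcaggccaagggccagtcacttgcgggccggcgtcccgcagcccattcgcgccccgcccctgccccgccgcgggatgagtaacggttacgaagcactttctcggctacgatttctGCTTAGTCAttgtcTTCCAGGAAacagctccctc
TXNRD1, chr12:104215529-104215778, plus strand: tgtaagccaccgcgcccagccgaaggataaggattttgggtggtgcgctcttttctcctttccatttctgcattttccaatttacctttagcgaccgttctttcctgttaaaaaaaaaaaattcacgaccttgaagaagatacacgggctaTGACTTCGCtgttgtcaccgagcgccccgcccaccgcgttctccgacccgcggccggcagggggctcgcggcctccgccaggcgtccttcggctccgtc
In GCLM the capitals mark the antioxidant core TGACTAAGC, which lies on the opposite strand, so that its reverse complement is printed, and starts 34 bases before the start site, and then the palindrome TTCCAGGAA, 20 bases before it. In TXNRD1 they mark the core TGACTTCGC, 99 bases before the start site. A further core (TGACGGAGC, opposite strand) begins 8 bases before the same TXNRD1 start and runs over it, and the window of another TXNRD1 start held TGACAAAGC on the opposite strand 102 bases before it. The SOD2 stretch, of which 80.8% is G or C, held none of the 3 motifs, nor did its other 3 windows or those of NQO1, CAT, GPX3 and SOD3. A match of letters is a description of the sequence and not a binding site.

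Library totals ranged from 742173 to 2213424 counts (median 1480883), and levels are given in CPM, the usual per-library scaling of counts, with TMM-adjusted totals. A count of 3, used as the floor below which a transcript was treated as not measured, was worth between 1.39 and 3.85 CPM, a limit that covers counting error only. SOD1, SOD2, CAT, NQO1, GCLM and TXNRD1 were above the floor in all 44 libraries, GCH1 in 26, HMOX1 in 19, GPX3 in 17 and SOD3 in 2. Fibroblast markers were at hand, with all 9 passing the filter and a summed level of at least 17243 CPM in each library. Defining markers of epithelial (EPCAM, CDH1), endothelial (PECAM1, CDH5) and immune cells (PTPRC, CD3E) had at most 2 counts in a library, and the summed endothelial and glial lists stayed at or under 2.81 CPM. Of the 4 epithelial markers only VIL1, which binds actin, was above the floor in any library (median 8.45 CPM). The summed immune list nonetheless ranged up to 73.8 CPM through CD68, a lysosomal protein of macrophages, which was 2.87 ± 3.32 CPM (SD, n = 4) in unstimulated cells, 59.1 ± 16.7 CPM after IFNα and 13.9 ± 5.1 CPM after IFNγ. Of the smooth muscle list (summed between 74.8 and 1333 CPM), ACTA2, an actin that fibroblasts also express, was 524 ± 273 CPM in unstimulated cells and fell after TNF, IL-1β, IL-17A and IFNγ, to between 115 and 190 CPM on average. ACTA2 was highest after IL-13, at 1053 ± 243 CPM, which did not pass the adjusted threshold used below. MYH11, also on the smooth muscle list, was 2.43 ± 3.09 CPM in unstimulated cells. It was highest after IL-13 (11.3 ± 5.26 CPM) and IL-6 (7.58 ± 4.21 CPM), and passed the threshold after no cytokine. The part of these markers in the results below was not tested.

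SOD2 was the enzyme that changed most widely. It rose after 5 of the 10 cytokines and fell after none, with the largest rises after IL-1β and TNF. The unstimulated libraries held 171, 202, 308 and 375 CPM of SOD2 (264 ± 94.3, SD, n = 4). After IL-1β they held 3351, 2512, 3605 and 3587 CPM, and after TNF 2612, 3519.95, 2549 and 2601 CPM. All 8 lay far above the highest unstimulated library. Against unstimulated cells these were rises of 12.4-fold for IL-1β (log2 fold change 3.63, standard error 0.29, adjusted p = 1.84e-12) and of 10.7-fold for TNF (3.42, standard error 0.29, adjusted p = 5.88e-12). Here and below, adjusted p-values are from edgeR's quasi-likelihood test over all 9513 genes with Benjamini-Hochberg adjustment, and a gene is said to have changed at an adjusted p under 0.05.

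**Figure D1:**
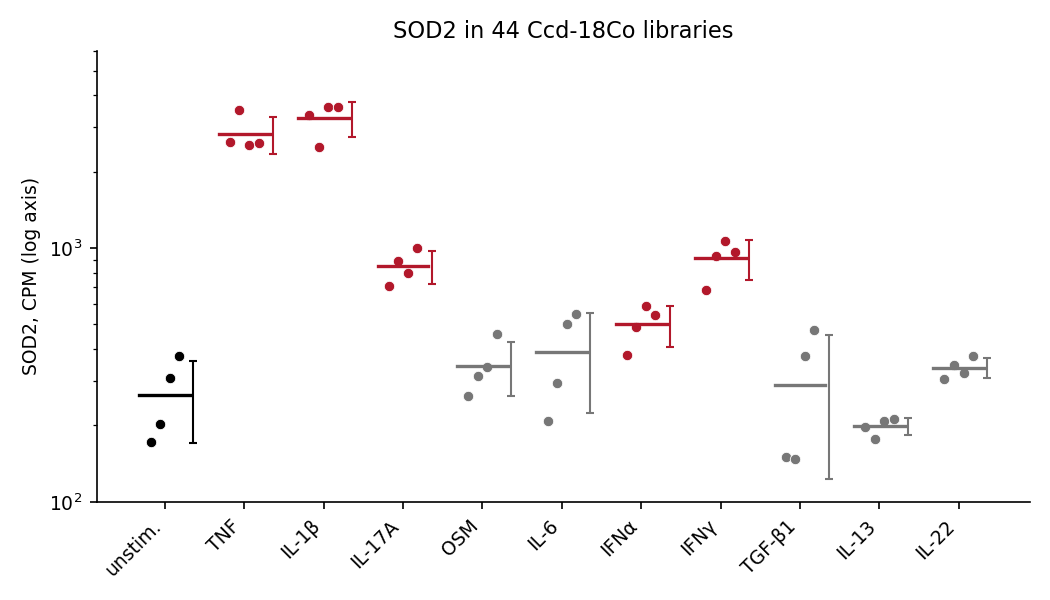
SOD2 in CPM (log axis) in each of 44 libraries by group, with the group mean (line) and SD (bar at the right, n = 4). Red groups rose against unstimulated cells (black) at an adjusted p under 0.05 and gray groups did not change. The IL-1β and TNF libraries lie between 2512 and 3605 CPM and the unstimulated ones between 171 and 375 CPM.

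A smaller rise in SOD2 followed IFNγ and IL-17A. The IFNγ libraries held 684, 927, 1065 and 968 CPM (log2 fold change 1.79, standard error 0.28, adjusted p = 5.35e-06). The IL-17A libraries held 709, 891, 800.5 and 1000.4 CPM (1.69, standard error 0.27, adjusted p = 0.000289). Neither group overlapped the unstimulated libraries, and the rises came to 3.45-fold and 3.22-fold. IFNα gave 379, 487, 591 and 546 CPM, just above the unstimulated range, and the estimate was 0.92 on the log2 scale (standard error 0.27, adjusted p = 0.0188). That call was lost without unstimulated replicate 1 (log2 fold change 0.76, adjusted p = 0.0875), unstimulated replicate 2 (0.82, adjusted p = 0.0793) or IFNα replicate 3 (0.84, adjusted p = 0.0633).

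After the other 5 cytokines the SOD2 libraries overlapped the unstimulated ones. The IL-6 libraries spread from 208 to 550.1 CPM and the TGF-β1 libraries from 148 to 477 CPM, wider ranges than that of the controls. OSM gave a log2 fold change of 0.38 (95% interval -0.16 to 0.93), IL-6 0.56 (0.01 to 1.10), TGF-β1 0.13 (-0.42 to 0.68), IL-22 0.35 (-0.19 to 0.90) and IL-13 -0.41 (-0.96 to 0.14). None passed the adjusted threshold.

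In order of the mean log2 CPM of SOD2, the groups ran IL-1β, TNF, IFNγ, IL-17A, IFNα, IL-6, OSM, IL-22, TGF-β1, unstimulated and IL-13. Libraries of neighbors in this order did not overlap at 2 places, between TNF and IFNγ and between IL-17A and IFNα (each exact 2-sided permutation p = 0.0286, the smallest that 4 against 4 libraries allow, and 0.143 after adjustment over the 10 neighbor pairs). The other 8 neighbor pairs overlapped, with exact permutation p-values of at least 0.286. Direct contrasts in the same model placed SOD2 lower after IL-17A than after IL-1β (log2 difference -1.94, standard error 0.27, adjusted p = 2.74e-06) and higher after TNF than after IFNγ (1.63, standard error 0.27, adjusted p = 2.16e-05). SOD2 was lower after IFNα than after IFNγ (-0.86, standard error 0.27, adjusted p = 0.0315). This last difference was no longer called without IFNα replicate 1, 2 or 4 (adjusted p = 0.104, 0.0652 and 0.051) or IFNγ replicate 3 or 4 (adjusted p = 0.0839 and 0.062). TNF and IL-1β gave a log2 difference in SOD2 of -0.21, with a 95% interval of -0.74 to 0.32.

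Part of the SOD2 gene span overlaps WTAP and ACAT2 on the opposite strand, and the sources used here do not say whether counting used strand. The 3 genes share few exon bases, 437 of the 6413 exon bases of WTAP and 133 of the 2639 of ACAT2. Against unstimulated cells, WTAP had a log2 fold change of 1.135 after IL-1β (adjusted p = 0.0695) and 0.62 after TNF (adjusted p = 0.361), and ACAT2 0.16 and 0.53 (adjusted p = 0.772 and 0.0567), while ACAT2 fell after OSM and IFNγ. The transcript SOD2-OT1 had at most 7 counts in a library and the pseudogene SOD2P1 none.

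The genes whose pattern was most like that of SOD2, by Pearson r of mean log2 CPM over the 11 groups among 7108 genes, were NFKBIA (r = 0.968), PTGES (0.962), CXCL3 (0.957), CXCL5 (0.947) and PTGFR (0.940). NFKBIA encodes an inhibitor of NF-κB, PTGES makes prostaglandin E2, CXCL3 and CXCL5 attract neutrophils and PTGFR is a prostaglandin receptor. These r describe 11 means, and SOD2 and the other genes were measured in the same libraries. By Spearman's rho 2 of the 5 (PTGES and CXCL5) stayed among the 5 most alike.

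SOD1, in contrast to SOD2, was not called in any comparison and SOD3 was too scarce to test. SOD1 did not change after any of the 10 cytokines, with log2 fold changes between -0.17 (IFNα) and 0.40 (IL-17A, adjusted p = 0.243) and 95% intervals that together reached from -0.48 to 0.71. Its libraries held 164, 185, 247 and 199 CPM in unstimulated cells and 247, 224, 259 and 314 CPM after IL-17A, which overlapped. The SOD1 pseudogenes SOD1P1, SOD1P2 and SOD1P3 had no count. SOD3 had 31 counts in all 44 libraries together and 0 in 29 of them, and was above the floor in OSM replicate 2 (4 counts) and IL-22 replicate 4 (7 counts).

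Per kilobase of the canonical GENCODE transcript, unstimulated cells held 222 ± 39.5 CPM per kb of SOD1, 102 ± 15.7 of NQO1, 65 ± 19.7 of TXNRD1, 29.1 ± 11.6 of CAT and 26.4 ± 5.72 of GCLM (SD, n = 4). SOD2 was left out of this order because its 11 protein-coding transcripts range from 507 to 14167 bases and the counts are summed per symbol. Counts of the enzymes shown are summed per symbol too, and the lengths of their other transcripts were not examined.

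**Figure D2:**
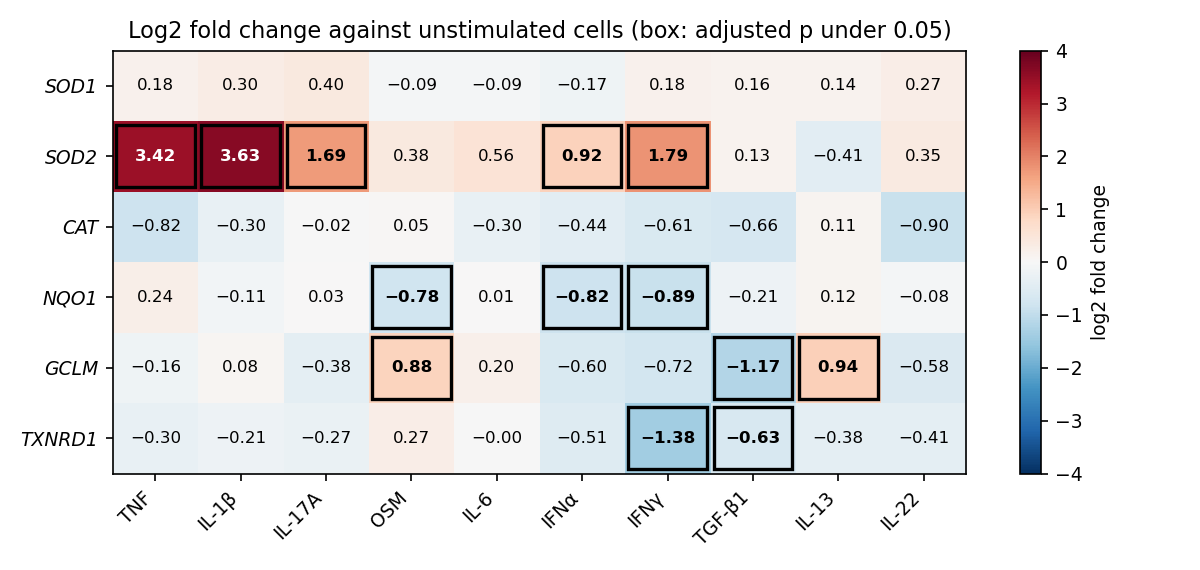
Log2 fold change of the 6 enzymes above the floor in all libraries (rows) after each cytokine against unstimulated cells (columns), on a color scale from -4 (blue) to 4 (red). Boxes mark an adjusted p under 0.05 from edgeR. SOD2 is boxed in 5 columns, NQO1 and GCLM in 3 each, TXNRD1 in 2, and SOD1 and CAT in none.

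Counted over the 9 enzymes tested, 2 changed after TNF (SOD2 and GCH1, both up) and the same 2 after IL-1β, beside 11.5% and 7.38% of all genes tested. After IL-17A 1 changed (SOD2, up), beside 1.52% of all genes. After IFNγ 4 changed (SOD2 and GCH1 up, NQO1 and TXNRD1 down) beside 10.6%, and after IFNα 3 (SOD2 and GCH1 up, NQO1 down) beside 9.85%. After OSM 2 changed (GCLM up, NQO1 down) beside 3.96%, after TGF-β1 2 (GCLM and TXNRD1, both down) beside 5.69% and after IL-13 1 (GCLM, up) beside 3.93%. With 9 enzymes, each count rests on a few genes. GCH1 was at or under the floor in all 4 unstimulated libraries and passed the filter only through stimulated libraries. Its part in these counts, and in those at the signature threshold below, is therefore tied to the filter. IL-6 and IL-22 changed 0 of the 9, beside 0.0105% and 0% of all genes by edgeR. At an unadjusted p under 0.05, 1 of the 9 differed after IL-6 and 4 after IL-22, and by DESeq2 the counts of called enzymes were also 0.

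At the study's own signature threshold, which asks for an absolute log2 fold change above 1.5 as well, SOD2 and GCH1 counted after TNF, IL-1β and IFNγ (beside 4.19%, 2.78% and 3.53% of all genes), SOD2 after IL-17A (0.452%) and GCH1 after IFNα (3.98%). None of the 9 reached it after OSM (1.3%), TGF-β1 (1.7%), IL-13 (1.47%), IL-6 (0.0105%) or IL-22 (0%). In the direct contrasts, 0 of the 9 differed between TNF and IL-1β (beside 1.15% of all genes), 2 between IFNα and IFNγ (9.39%), 3 between TNF and IFNγ (8.01%) and 1 between IL-17A and IL-1β (3.4%). For TNF against IL-1β, 0 of the 9 had an unadjusted p under 0.05, and DESeq2 also called 0.

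GCH1 was at or under the floor in all 4 unstimulated libraries (0, 0, 0 and 2 counts) and was measured after TNF, IL-1β, IFNγ and IFNα. The TNF libraries held 11.3, 12.9, 13.5 and 28.9 CPM, the IFNγ libraries 9.04, 9.97, 10.4 and 14.2 CPM and the IL-1β libraries 8.58, 3.98, 21.0 and 10.4 CPM. Each of these 12 libraries was above every unstimulated one. Since the controls were not measured, the rises are lower bounds against 3 counts per library (1.95 CPM on average). Mean GCH1 was at least 8.53-fold higher after TNF, at least 5.62-fold after IL-1β and at least 5.58-fold after IFNγ. The edgeR test of a difference from unstimulated cells gave adjusted p = 0.00138, 0.00647 and 0.00595 for these cytokines. These p-values do not test the bounds. They are also tied to the filter, which GCH1 passed only through stimulated libraries. Without TNF replicate 4 the TNF bound was 6.43-fold, and without IL-1β replicate 3 the IL-1β bound was 3.91-fold. The lowest IFNγ bound, without IFNγ replicate 4, was 5.02-fold.

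After IFNα the GCH1 libraries were uneven, at 4.41, 5.93, 0 and 13.1 CPM, and overlapped the controls. The mean was at least 2.995-fold higher, and without IFNα replicate 4 this bound was 1.76-fold. The edgeR test of a difference, with the same limits, gave an adjusted p of 0.0318. Leaving out IFNα replicate 4 ended the call (adjusted p = 0.141), as did leaving out unstimulated replicate 1, 2 or 3 (adjusted p = 0.0945, 0.093 and 0.0883). After IL-17A, OSM, IL-6, TGF-β1, IL-13 and IL-22 GCH1 did not change, and the highest library was TGF-β1 replicate 1 with 10.9 CPM (TGF-β1 adjusted p = 0.0872 by edgeR and 0.0421 by DESeq2). No neighbor pair in the order of GCH1 levels, from TNF, IFNγ, IL-1β and IFNα downward, was apart beyond its spread (lowest exact permutation p = 0.143). No difference in GCH1 was called between TNF and IL-1β (log2 difference 0.61, 95% interval -1.10 to 2.31), TNF and IFNγ (0.61, -1.11 to 2.33) or IFNα and IFNγ (-0.87, -2.65 to 0.91), intervals that leave room for changes of a few fold.

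The 5 genes most like GCH1 over the 11 group means were GORAB (r = 0.962), MANF (0.960), PSMA6 (0.933), UBB (0.930) and CCL7 (0.927). MANF is a protein of the endoplasmic reticulum, PSMA6 a proteasome subunit, UBB a ubiquitin gene and CCL7 a monocyte chemokine. By rho only UBB stayed among the 5 most alike. Mean GCH1 lay within or under the range of the floor (1.39 to 3.85 CPM) in unstimulated cells and after IL-17A, OSM, IL-6, IL-13 and IL-22. These r therefore rest in part on levels that were not measured.

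**Figure D3:**
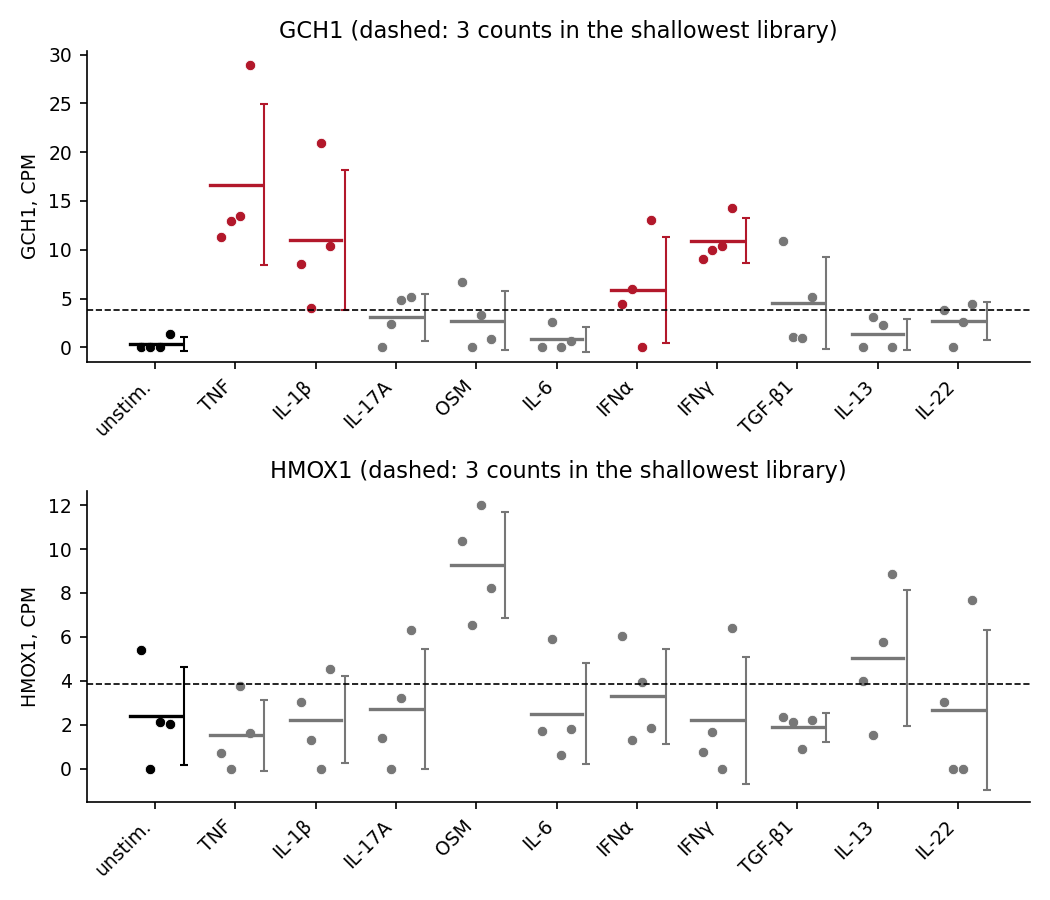
GCH1 (top) and HMOX1 (bottom) in CPM in each library by group, with group mean (line) and SD (bar, n = 4). Red groups rose at an adjusted p under 0.05, and the dashed line is 3 counts in the shallowest library (3.85 CPM). The 4 TNF libraries of GCH1 lie between 11.3 and 28.9 CPM, and the 4 OSM libraries of HMOX1 between 6.52 and 12.0 CPM.

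The NRF2 targets NQO1 and GCLM changed after 3 cytokines each and TXNRD1 after 2. NQO1 fell after OSM, IFNα and IFNγ and did not change after the other 7 cytokines. Unstimulated libraries held 310.4, 263, 231 and 223 CPM of NQO1. After IFNα they held 159.8, 151, 141 and 130.1 CPM and after OSM 168, 145, 153 and 131 CPM, all below the lowest control. The log2 fold changes were -0.82 for IFNα (standard error 0.21, adjusted p = 0.00652) and -0.78 for OSM (standard error 0.21, adjusted p = 0.0239). The IFNα call held without any single library, whereas the OSM call was lost without OSM replicate 2, 3 or 4 (adjusted p = 0.0718, 0.0609 and 0.0955) or unstimulated replicate 1 or 2 (adjusted p = 0.0719 and 0.0676).

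After IFNγ the NQO1 libraries were spread over 101, 58.1, 163 and 231 CPM, and the highest of them reached into the control range. The log2 fold change was -0.89 (standard error 0.21, adjusted p = 0.00357), and with only the 8 libraries compared in the model it was -0.87 with an adjusted p of 0.167. NQO1 was higher after TNF than after IFNγ (log2 difference 1.13, standard error 0.22, adjusted p = 0.000197, and 0.093 with only those 8 libraries). Between IFNα and IFNγ no difference was called (0.07, 95% interval -0.36 to 0.50).

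GCLM rose after IL-13 and OSM and fell after TGF-β1. The unstimulated libraries held 106, 157, 148 and 104 CPM of GCLM. The IL-13 libraries held 264, 339, 159.9 and 229 CPM, the OSM libraries 194, 256, 233 and 269 CPM and the TGF-β1 libraries 39.0, 47.9, 49.9 and 91.0 CPM. None of the 3 groups overlapped the controls, although IL-13 replicate 3 and TGF-β1 replicate 4 came close. Log2 fold changes were 0.94 for IL-13 (standard error 0.26, adjusted p = 0.0273), 0.88 for OSM (standard error 0.26, adjusted p = 0.0415) and -1.17 for TGF-β1 (standard error 0.28, adjusted p = 0.00575).

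Both GCLM rises depended on single libraries, and the fall after TGF-β1 did not. The IL-13 call was lost without unstimulated replicate 1 or 4 (adjusted p = 0.0895 and 0.107) or IL-13 replicate 1 or 2 (adjusted p = 0.0581 and 0.126). The OSM call was lost without unstimulated replicate 1 or 4 (adjusted p = 0.0973 and 0.146) or OSM replicate 2, 3 or 4 (adjusted p = 0.109, 0.0741 and 0.0945). After IFNα and IFNγ all GCLM libraries lay below the lowest control, at 62.9 to 97.0 CPM and 48.5 to 101 CPM, with log2 fold changes of -0.60 (adjusted p = 0.163) and -0.72 (adjusted p = 0.0786) that did not pass. With all genes of any count kept, the IFNγ value passed (adjusted p = 0.0368).

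TXNRD1 fell most clearly after IFNγ. The unstimulated libraries were spread over 329, 299.6, 165 and 210.4 CPM, whereas the IFNγ libraries lay close together at 92.6, 97.2, 85.0 and 109.6 CPM, below all controls. The log2 fold change was -1.38 (standard error 0.20, adjusted p = 1.81e-06). TXNRD1 was also lower after IFNγ than after IFNα (216, 203, 151 and 136 CPM), since IFNα against IFNγ gave 0.88 on the log2 scale (standard error 0.20, adjusted p = 0.00247), and lower than after TNF (TNF against IFNγ 1.09, standard error 0.20, adjusted p = 0.000138).

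After TGF-β1 the TXNRD1 libraries held 189, 177, 127 and 156 CPM and overlapped the controls. The log2 fold change of -0.63 (standard error 0.20) passed at an adjusted p of 0.0461. It no longer passed under 5 of the 7 alternative settings, nor without TGF-β1 replicate 1, 2, 3 or 4 (adjusted p = 0.0578, 0.075, 0.214 and 0.0898) or unstimulated replicate 1 or 2 (adjusted p = 0.167 and 0.195). After OSM, where GCLM rose, TXNRD1 held 317, 310.1, 300.2 and 283 CPM, inside the control range (log2 fold change 0.27).

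**Figure D4:**
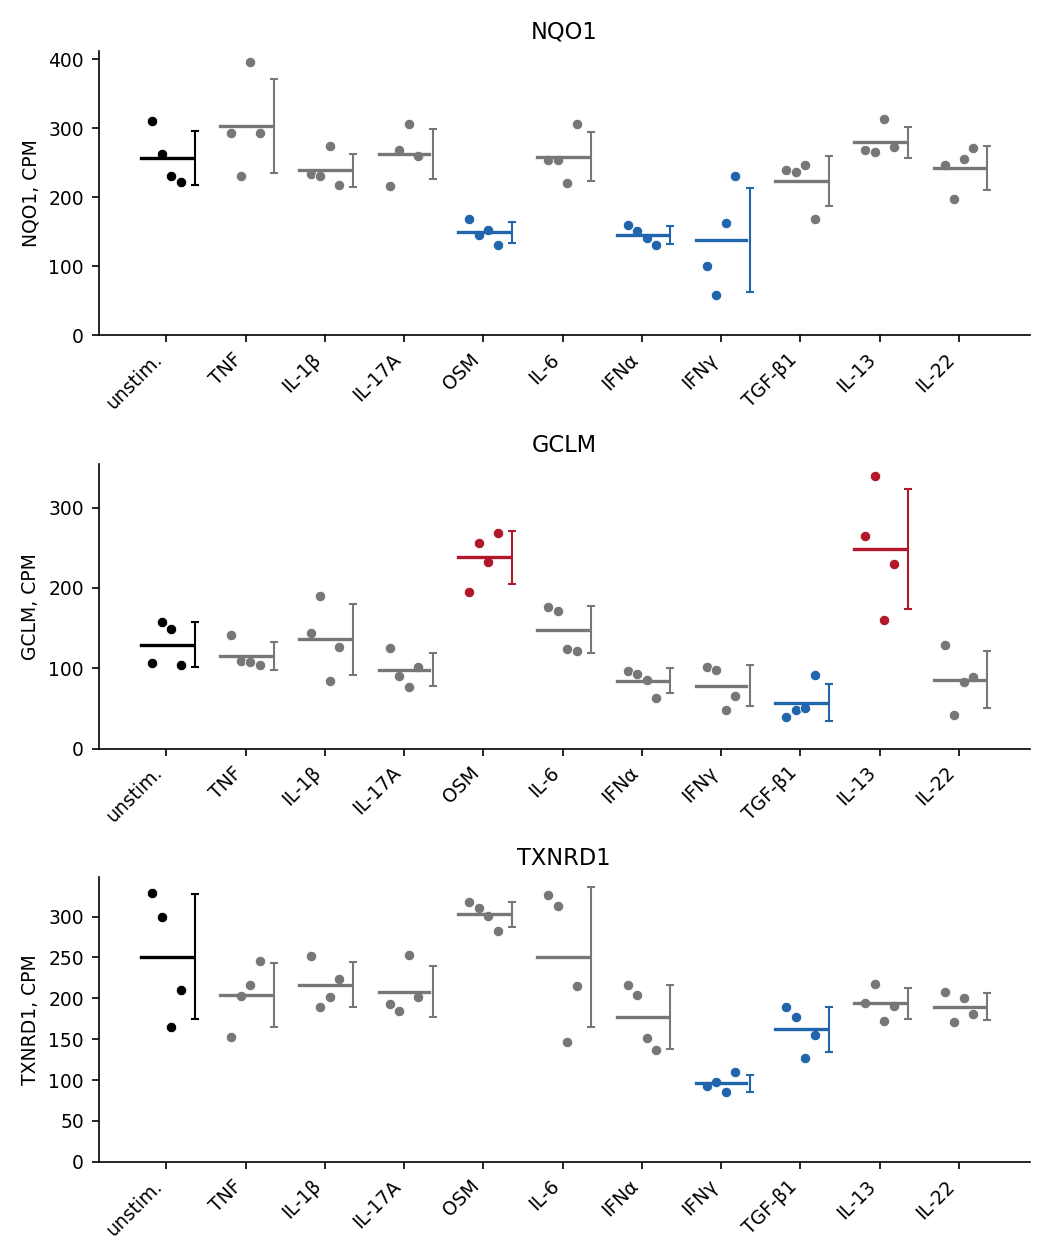
NQO1, GCLM and TXNRD1 in CPM in each of 44 libraries by group, with the group mean (line) and SD (bar at the right, n = 4). Red groups rose and blue groups fell against unstimulated cells (black) at an adjusted p under 0.05. After IFNγ the 4 TXNRD1 libraries lie between 85.0 and 109.6 CPM, while the 4 NQO1 libraries spread from 58.1 to 231 CPM.

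HMOX1, in the same textbook group, was near the floor. Unstimulated libraries held 11, 0, 3 and 3 counts (2.39 ± 2.23 CPM), and OSM libraries 17, 11, 18 and 10 counts (9.28 ± 2.40 CPM), so that all OSM libraries lay above all controls in CPM. The log2 fold change of 1.87 had a standard error of 0.93 and did not pass (adjusted p = 0.329). After the other 9 cytokines mean HMOX1 levels were between 1.52 and 5.04 CPM.

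Of the enzymes followed, CAT and GPX3, which remove peroxide, were not called as changed after any cytokine. CAT libraries held 101, 63.4, 35.9 and 66.3 CPM in unstimulated cells, a wide range into which most stimulated libraries fell. The lowest means were 35.9 ± 2.95 CPM after IL-22 (log2 fold change -0.90, adjusted p = 0.243) and 37.9 ± 19.5 CPM after TNF (-0.82, adjusted p = 0.0791). With TNF replicate 3 or unstimulated replicate 3 left out, the fall after TNF would pass (adjusted p = 0.0166 and 0.0319). GPX3 had at most 22 counts in a library (IFNα replicate 1, 12.1 CPM) and 0 in 18 of the 44, with standard errors of at least 1.27 on the log2 scale against unstimulated cells, so that changes of a few fold were not detectable at this depth.

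Of 90 other genes in 7 lists by textbook role around these enzymes, 64 passed the filter. The lists also hold oxidant sources and inhibitors such as KEAP1 and TXNIP, so that a rise is not always one in antioxidant capacity. Of these 64, 14 (21.9%) changed after TNF (7 up, 7 down) beside 11.5% of all genes tested, 13 (20.3%) after IFNγ (5 up, 8 down) beside 10.6%, and 11 (17.2%) after IFNα (4 up, 7 down) beside 9.85%. After TGF-β1 10 (15.6%) changed (5 up, 5 down) beside 5.69%, and after IL-1β 8 (12.5%, 5 up, 3 down) beside 7.38%. After IL-17A and OSM 3 each (4.69%, 2 up and 1 down in both) changed beside 1.52% and 3.96%, after IL-13 2 (3.13%, both down) beside 3.93%, and after IL-6 and IL-22 0 by edgeR and by DESeq2. By DESeq2 7 in place of 3 changed after OSM. These shares were not tested against those of all genes. The median log2 fold change of the 64 lay between -0.20 (IFNα) and 0.23 (IL-22), while over all genes the medians lay between -0.05 and 0.00.

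**Figure D5:**
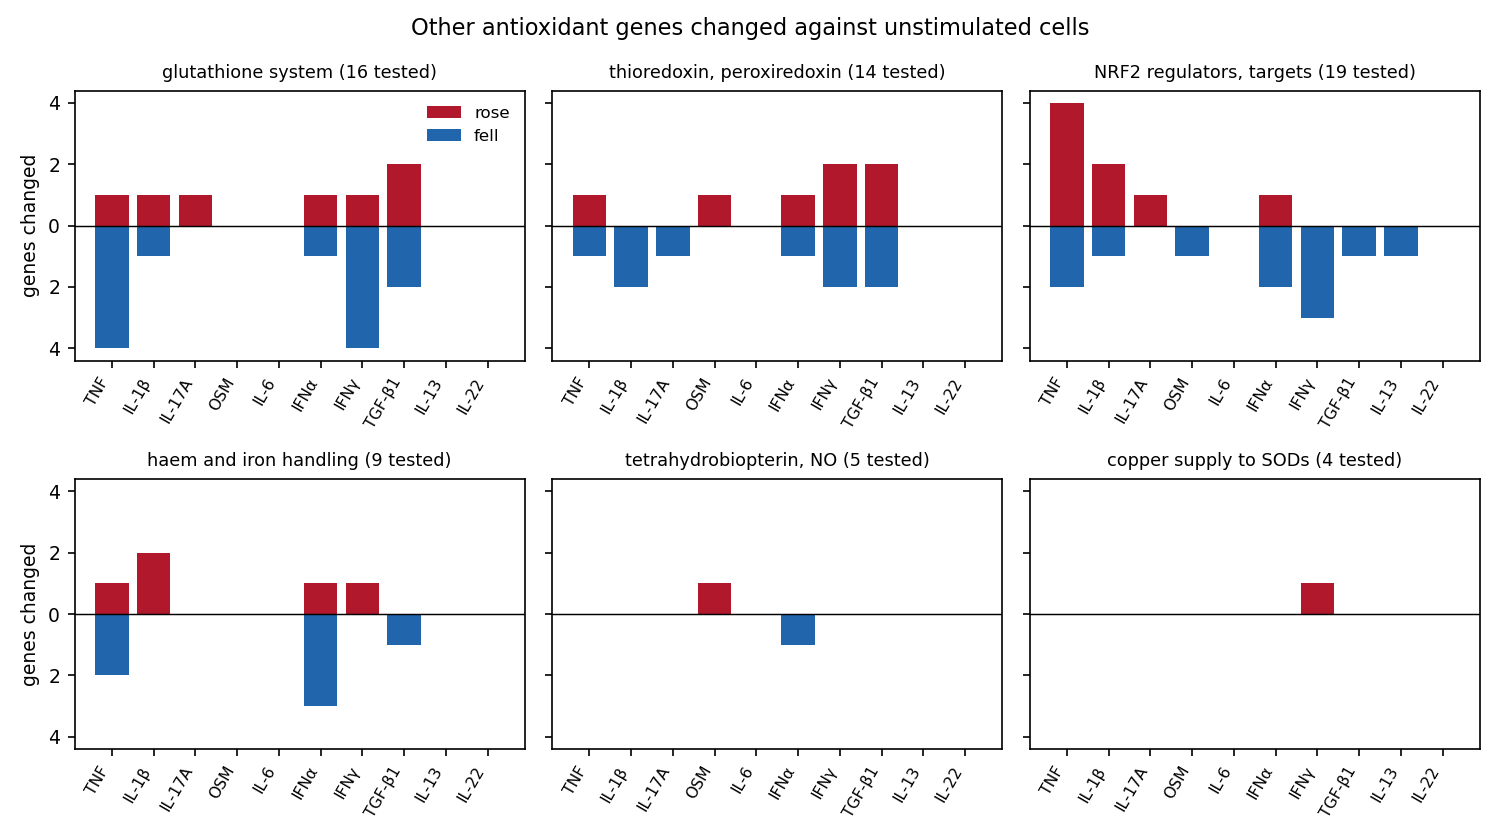
Number of genes of 6 lists (all but the oxidant sources) that rose (red, upward) or fell (blue, downward) after each cytokine at an adjusted p under 0.05. The number tested is in each title, and GCLC and SLC7A11 count in both the NRF2 and the glutathione list. The largest number in a direction is 4, reached by rises in the NRF2 list after TNF and by falls in the glutathione list after TNF and IFNγ.

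Of the NRF2 regulators and targets, 19 of 22 were tested. NFE2L2 itself rose after IFNα, from 456 ± 68.0 to 684 ± 68.4 CPM (log2 fold change 0.59, standard error 0.13, adjusted p = 0.000952), and did not change after the other 9 cytokines. KEAP1 did not change (largest log2 fold change 0.74, IL-22). Under TNF 4 of the 19 rose and 2 fell (beside 11.5% of all genes changed), and under IL-1β 2 rose and 1 fell (beside 7.38%). The falls after TNF were those of GCLC and SLC7A11, and the fall after IL-1β was that of SLC7A11. Both genes are also counted in the glutathione list. The aldo-keto reductase AKR1B1 rose from 159 ± 33.2 to 1437 ± 262 CPM after TNF (adjusted p = 6.42e-13) and to 764 ± 95.03 CPM after IL-1β (adjusted p = 1.8e-09). Its relative AKR1C1 rose after TNF, IL-1β and IL-17A (from 39.8 to 117, 232 and 129 CPM) and fell after IL-13 (17.9 CPM). AKR1C3 fell after OSM, IFNα and IFNγ, from 16.1 to 1.73, 3.31 and 2.49 CPM. These 3 means lay within the range of the floor, so that the size of the AKR1C3 falls was not measured. The AKR1C genes are near copies of each other, so the division of reads between them is uncertain. SLC7A11, the cystine carrier that feeds glutathione synthesis and belongs to 2 of the lists, fell after IFNγ, from 212 ± 42.3 to 59.0 ± 15.1 CPM (log2 fold change -1.84, adjusted p = 1.16e-08), and after IFNα, TGF-β1, TNF and IL-1β (71.3, 106, 114 and 123 CPM). The small MAF protein MAFF rose after TNF from 1.02 ± 0.862 to 7.16 ± 3.17 CPM (adjusted p = 0.0362). The unstimulated MAFF mean lay under the floor, so that the size of this rise was not measured. MAFF had at most 13 counts in a library. As with GCH1, its call and its part in the counts after TNF are tied to the filter. Malic enzyme ME1 fell after IFNγ from 68.1 to 31.9 CPM (adjusted p = 0.00604).

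The glutathione list had 16 of 19 genes tested, of which 1 rose and 4 fell after TNF and likewise after IFNγ, beside 11.5% and 10.6% of all genes changed. The transferase GSTO1 rose after TNF, IFNα, IFNγ and TGF-β1, with the largest rise after IFNγ, from 173 ± 18.4 to 395 ± 129 CPM (log2 fold change 1.19, adjusted p = 3.55e-06). Glutathione reductase (GSR) fell after TNF, IFNγ and TGF-β1, to between 13.9 and 15.5 CPM from 34.4 ± 16.6 CPM. GCLC, the catalytic partner of GCLM, fell after TNF, from 25.0 ± 13.2 to 2.47 ± 4.02 CPM (standard error 1.07 on the log2 scale, adjusted p = 0.0347), where GCLM did not change. The GCLC mean after TNF lay within the range of the floor (1.39 to 3.85 CPM). The microsomal transferase MGST1 rose after IL-1β and IL-17A, from 148 to 245 and 246 CPM, and fell after IFNγ (89.2 CPM).

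Of the thioredoxin and peroxiredoxin list, 14 of 15 were tested, and at most 4 changed after a cytokine (2 up and 2 down after IFNγ and after TGF-β1, beside 10.6% and 5.69% of all genes). TXNIP, the inhibitor of thioredoxin, rose after IFNα from 62.4 ± 4.35 to 155 ± 15.4 CPM (adjusted p = 4.96e-06) and fell after IL-1β (30.8 CPM), TNF (37.9 CPM) and TGF-β1 (38.0 CPM). The mitochondrial peroxiredoxin PRDX3 rose after TNF and TGF-β1, and its relative PRDX4 after TGF-β1 and IFNγ (328 to 533 and 437 CPM). Glutaredoxin GLRX rose after OSM and IFNγ, from 126 to 219 and 179 CPM, and fell after TGF-β1 (81.0 CPM). GLRX2 fell after IFNα and IFNγ, from 150.3 to 88.1 and 85.6 CPM. The methionine sulfoxide reductase MSRB3 fell after IL-17A, IL-1β and IFNγ, from 95.3 to 35.4, 52.9 and 51.2 CPM.

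Of the heme and iron list all 9 were tested. The ferritin heavy chain FTH1 rose after TNF from 2137 ± 548 to 5793 ± 670 CPM (log2 fold change 1.44, adjusted p = 5.81e-08), and after IL-1β and IFNγ. The transferrin receptor TFRC rose after IL-1β and fell after IFNα. The iron exporter SLC40A1 fell after TNF and TGF-β1, from 31.7 to 7.77 and 8.68 CPM. Biliverdin reductase (BLVRA), which acts after HMOX1, fell after TNF (39.3 CPM) and rose after IFNα (105 CPM) from 63.7 CPM. After IFNα the ferritin light chain FTL fell from 1731 to 952 CPM and ferrochelatase (FECH), the last enzyme of heme synthesis, from 54.1 to 24.1 CPM.

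Few of the genes that would use or make the partners of these enzymes were measured. Of 9 genes for tetrahydrobiopterin and nitric oxide synthesis 5 were tested, the nitric oxide synthases NOS1, NOS2 and NOS3 had at most 3 counts in a library, and PTS, the enzyme after GCH1 in the pathway, rose after OSM (187 to 257 CPM, adjusted p = 0.0339) and not after TNF, IL-1β or the interferons. Of 16 oxidant sources only NOX4, an NADPH oxidase, was tested. It rose after TGF-β1, from 10.5 ± 4.91 to 58.8 ± 5.40 CPM (log2 fold change 2.47, adjusted p = 0.00397), and fell after IL-13, to 0.332 ± 0.664 CPM (adjusted p = 0.000463). The IL-13 mean lay under the floor, so that the size of this fall was not measured. Of 4 genes that supply copper to superoxide dismutases, all tested, the copper carrier SLC31A1 rose after IFNγ (104 to 180.1 CPM, adjusted p = 0.00783).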

How the data were processed

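Bulk RNA-seq of 44 Ccd-18Co libraries (11 groups of 4, assigned from sample titles) was analysed. The labels name the NEBNext Ultra II RNA kit and an Illumina NovaSeq6000. The submitters' processing notes name FastQC (0.11.9), MultiQC (1.14), kallisto (0.48.0) and hg38. The authors deposited estimated counts per gene symbol and library, unscaled, of which 5.77% are not whole. The transcriptome release, the step to symbols and the use of strand are not given in the sources used here.

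Estimated counts were rounded, filtered by filterByExpr (9513 genes), scaled by TMM (trimmed mean of M values) and fitted in 1 quasi-likelihood model over all libraries (edgeR 4.0.16, limma 3.58.1, R 4.3.3), with Benjamini-Hochberg adjustment over all genes in each comparison. The groups share 1 estimate of the spread, and comparisons with unstimulated cells share those 4 libraries. CPM use the normalized library size (prior count 2 for log2 CPM). Neighbors in the order of levels were compared by exact 2-sided permutation of mean log2 CPM. Likeness was computed among tested genes of mean log2 CPM of at least 3. The 66 pairs of replicates held no identical libraries. Code was tested on simulated data.

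Named were the 10 enzymes, per cytokine and list up to 3 changed genes of largest log2 fold change, NFE2L2, KEAP1 and the 5 genes most like SOD2 and GCH1 (1 gene that the rule names is not reported here). WTAP, ACAT2, CD68, ACTA2 and MYH11 were named after their values were seen. The enzymes and lists were chosen with earlier results of these data known. Alternatives were 2 other normalizations, DESeq2 (1.42.0), 2 other filters, fewer groups in the model, a replicate block, a fold threshold, Spearman's rho and leaving out each replicate.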

Additional observations from a re-analysis of the deposited data

Results flagged for a closer look

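In 15 of 108 combinations of an enzyme and a group, 1 of the 4 libraries stood further from the other 3 than Dixon's criterion at the 95% level allows, where chance gives about 1 in 20 (5.4 of 108). Of the well-counted enzymes, SOD2 in TNF replicate 2 was high at 3519.95 CPM (the others 2549 to 2612 CPM), so that 1 library raised the TNF mean. SOD1 in IFNα replicate 1 was low at 135 CPM (the others 188 to 192), NQO1 was low in TGF-β1 replicate 4 at 169 CPM (the others 237 to 247) and high in IL-13 replicate 3 at 313 CPM (the others 266 to 273). GCLM was high in TNF replicate 1 at 141 CPM (the others 104 to 109), and CAT was high in IL-22 replicate 1 at 40.3 CPM (the others 33.9 to 34.7), a distance of a few CPM.

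GCH1 was high in TNF replicate 4 at 28.9 CPM (54 counts, the others 11.3 to 13.5 CPM), and in unstimulated cells replicate 4 held the only counts (2 counts, 1.37 CPM). HMOX1 in TGF-β1 replicate 3 was low at 0.907 CPM, which was 1 count. The remaining 6 were cases in which 1 library held nearly all counts of a scarce transcript. GPX3 stood at 3.25 CPM in IL-17A replicate 1, 7.10 CPM in IL-13 replicate 4 and 6.84 CPM in IL-22 replicate 1. SOD3 stood at 0.706 CPM in TNF replicate 1, 1.27 CPM in IL-1β replicate 3 and 1.51 CPM in IFNγ replicate 1, each 1 or 2 counts.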

How the results depend on the processing

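The rises in SOD2 after TNF, IL-1β, IL-17A and IFNγ, the fall in TXNRD1 after IFNγ, in NQO1 after IFNα and in GCLM after TGF-β1 kept their direction and their call in all 7 alternative fits and without any single library. No call changed sign. With only the groups compared in the model, 1 enzyme in place of 2 changed after IL-1β (GCH1 was not tested there) and 1 after TGF-β1. DESeq2's size factors, upper quartile normalization and a minimum of 10 counts in 4 libraries likewise left 1 enzyme changed after TGF-β1 (GCLM). Asking for an absolute log2 fold change above 1.5 as well left 0 enzymes after OSM, TGF-β1 and IL-13, 1 after IFNα and 2 after IFNγ. Of the 64 other genes of the 7 lists it left 5 in place of 14 after TNF and 2 of 8 after IL-1β. It left 2 each of 11, 13 and 10 after IFNα, IFNγ and TGF-β1, and 1 each after IL-17A, OSM and IL-13. Without 1 library at a time, the number changed ranged from 0 to 2 after OSM, 1 to 3 after IFNα, 1 to 2 after TGF-β1, 0 to 1 after IL-13 and 1 to 2 between IFNα and IFNγ. SOD2's log2 fold change then ranged from 0.76 to 1.15 after IFNα, from -0.20 to 0.36 after TGF-β1 and from -0.997 to -0.77 for IFNα against IFNγ. The cause of these shifts was not tested. Normalizations moved the median of all genes by less than 0.1 (log2).

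By the rule used, replicate numbers pair the samples if all same-number correlations of deviations are over 0.1, which held in 0 of 10 comparisons. This rule does not test for weaker structure shared by replicate number. The mean r was 0.0354 over 220 same-number pairs and -0.0115 over 660 others. At most 3 of 4 samples of a group correlated best with their own number. After IL-6 and IFNα, 3 of 4 same-number correlations were over 0.1 (the highest 0.406, IL-6). The number was 0 to 2 after the other cytokines. With the replicate number as a block, SOD2's log2 fold change was 3.50 after TNF and 5 enzymes in place of 4 changed after IFNγ (GCLM, adjusted p = 0.0446). Depth limits GCH1, HMOX1, GPX3 and SOD3, whose counts were at or under 3 in many libraries.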

Other observations

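In 8 of 11 groups, the SOD2 values of the libraries numbered 3 and 4 were both above those numbered 1 and 2, namely unstimulated cells, IL-1β, OSM, IL-6, IFNα, IFNγ, TGF-β1 and IL-13, and in 1 group (TNF) both were below. Of the 9513 genes tested, 0.336% showed this in at least as many groups, and the median gene in 2. For TXNRD1 and GCLM the libraries numbered 3 and 4 were both below in 6 groups each. Of all genes 2.47% did so in at least 6. The labels do not say what a replicate number stands for, and the pattern was noticed in the values and was not tested.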
